A study of Mus musculus with 3 samples.

Results

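Clusters 9 and 11 of the deposited clustering of mouse olfactory bulb (OB) nuclei were compared, the first a candidate for astrocytes and the second a candidate for olfactory ensheathing glia. Members were taken by cluster number from the deposited table of nuclei: 1136 nuclei in cluster 9 and 972 in cluster 11, together 2108 of 31703 retained nuclei. The nuclei came from 3 male C57Bl/6 mice, adults of 7 weeks, for which no transgene or mutant allele was given. Each mouse had received rAAVretro-CAG-H2B-GFP, a retrogradely transported adeno-associated virus that puts a histone-bound GFP under the ubiquitous CAG promoter into the nucleus, in the piriform cortex (PCx) and the anterior olfactory nucleus (AON). OB nuclei were sorted for GFP and for the DNA dye DRAQ5 and read with the 10x Chromium 3' kit, 1 library per mouse. All nuclei were thus from virus-injected animals, and there was no uninjected group. The sort was meant to enrich projection neurons, so the glia described here are those that passed its GFP gate and not a sample of all OB glia. UMIs (RNA molecules, each counted once by its random tag) were summed per cluster and mouse, and levels are given as CPM, UMIs per 1000000 UMIs of that sum. This gave 3 libraries against 3, with both clusters of a mouse from the same animal.

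Astrocytes clear glutamate and GABA from around synapses, take up potassium and water, store glycogen and are coupled to each other by gap junctions. Olfactory ensheathing cells are glia of neural crest origin that wrap bundles of olfactory sensory axons on their way from the nose into the outer layers of the bulb. They share transcription factors and several membrane proteins with Schwann cells, but do not myelinate. In the outermost layers of the bulb the processes of both kinds of glia lie side by side.

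Cluster 9 made up 3.22%, 3.59% and 4.02% of the retained nuclei of mice 1, 2 and 3, and cluster 11 made up 2.43%, 3.35% and 2.61%. The mean share was 3.61 ± 0.40% for cluster 9 and 2.79 ± 0.49% for cluster 11 (SD, n = 3). Exact binomial 95% intervals, which cover counting error only, overlapped between the clusters in mice 1 and 2 and were apart in mouse 3 (3.48 to 4.62% against 2.18 to 3.10%). Per mouse, 188, 757 and 191 nuclei entered for cluster 9 and 142, 706 and 124 for cluster 11. The summed libraries held between 668266 and 5373028 UMIs, with the largest in mouse 2 for both clusters. Nuclei of both clusters were shallower than the rest of their mouse, with medians of 3840, 5364 and 6063 UMIs in cluster 9 and 3920, 5228 and 5095 in cluster 11. No barcode of either cluster was shared between mice.

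Markers of the candidate types set the clusters apart in every mouse. Of 16 astrocyte markers, all tested, 13 were higher in cluster 9 and none in cluster 11, with a median log2 fold change of 3.69. Log2 fold changes are given as cluster 9 over cluster 11 with their standard error, and a gene was called when its adjusted p (edgeR quasi-likelihood test, Benjamini-Hochberg) was under 0.05 and its log2 fold change above 1 or below -1. Of 13 markers of olfactory ensheathing cells, 12 were tested and 12 were higher in cluster 11, with a median of -6.69. Over all 11163 genes tested, 8.26% were called higher in cluster 9 and 9.01% higher in cluster 11, and the median was 0.03. Because the clusters had been formed on these same counts, the adjusted p values describe how the clusters differ and do not test whether they exist. On these markers cluster 9 is called astrocyte-like and cluster 11 olfactory ensheathing cell-like below.

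**Figure D1:**
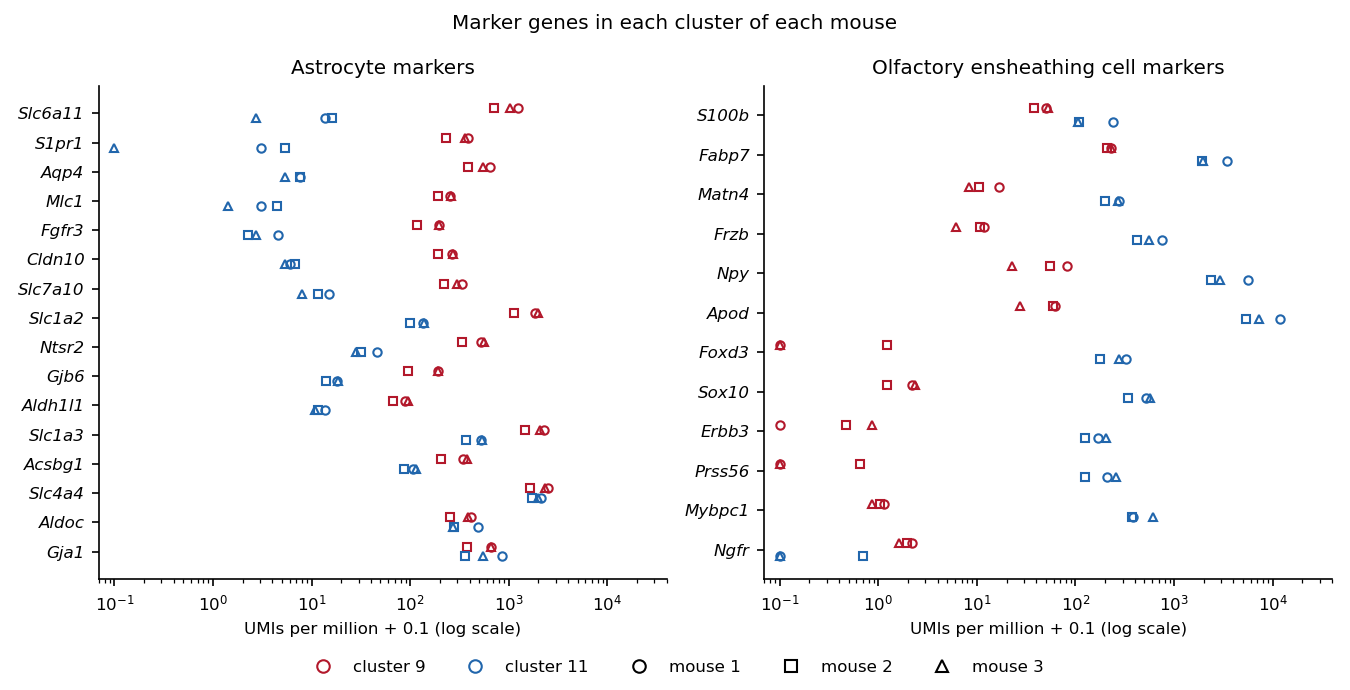
Level of each astrocyte marker (left) and of 12 of the 13 olfactory ensheathing cell markers (right), in CPM with 0.1 added, on a log axis; red is cluster 9, blue is cluster 11, and circles, squares and triangles are mice 1, 2 and 3. The clusters do not overlap for 13 of the astrocyte markers, meet at Slc4a4, Aldoc and Gja1, and are apart for the 11 tested ensheathing cell markers drawn, while Ngfr lies near 0 in both.

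The astrocyte markers differed by large factors. Aqp4 stood at 640.3, 386 and 554 CPM in cluster 9 (mice 1, 2 and 3) and at 7.48, 7.49 and 5.32 in cluster 11 (log2 fold change 6.03 ± 0.24, adjusted p = 1.11e-07). Aqp4 encodes the water channel of astrocyte endfeet, and its lowest library of cluster 9 lay far above the highest of cluster 11. For Slc1a2, cluster 9 gave 1855, 1119 and 1977 CPM and cluster 11 135, 99.2 and 138 (log2 fold change 3.70 ± 0.19, adjusted p = 2.14e-07). Slc1a2 and Slc1a3 encode the astrocytic glutamate transporters. The level of Slc1a3 was 2279, 1463 and 2090 in cluster 9 against 527, 365 and 532 in cluster 11 (log2 fold change 2.04 ± 0.17, adjusted p = 5.97e-06). Slc1a3 was therefore lower in cluster 11 without being near 0 there. The remaining 3 astrocyte markers did not separate the clusters: log2 fold changes were 0.15 for Slc4a4, 0.05 for Aldoc and -0.00 for Gja1, and for each of them both clusters held the highest levels among all 22 clusters.

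The markers of ensheathing cells went the other way. Frzb reached 11.6, 10.6 and 6.04 CPM in cluster 9 and 749.7, 419 and 553 in cluster 11 (log2 fold change -5.75 ± 0.25, adjusted p = 1.42e-07). Frzb encodes a secreted Wnt antagonist. Cluster 9 held 82.0, 55.5 and 22.7 CPM of Npy and cluster 11 5625, 2392 and 2922 (log2 fold change -6.08 ± 0.31, adjusted p = 2.37e-07). Npy, neuropeptide Y, is also an interneuron transmitter of the forebrain. With 0, 1.12 and 0 CPM in cluster 9 and 323, 177 and 279 in cluster 11, Foxd3 had a log2 fold change of -8.03 ± 0.38, adjusted p = 1.76e-07. Foxd3, a transcription factor of neural crest, stood at no more than 2.26 CPM in any of the other 20 clusters. The exception in the list was Ngfr, the p75 neurotrophin receptor, at 0.197 CPM in cluster 11 and 1.82 in cluster 9, too few UMIs to be tested.

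The same markers were counted per nucleus, as a description, since the nuclei had been placed in the clusters by these counts. Nuclei were thinned to 2000 UMIs each, which left out 8 nuclei of cluster 9 and 4 of cluster 11 that had fewer. More UMIs of astrocyte than of ensheathing cell markers were found in 100%, 99.5% and 100% of cluster 9 nuclei in mice 1, 2 and 3. In cluster 11 the reverse held for 98.6%, 96.7% and 96.8%. Apod, which encodes a lipid-binding apolipoprotein, was seen in 97.9 ± 1.6% of thinned cluster 11 nuclei and in 9.63 ± 2.9% of thinned cluster 9 nuclei (SD, n = 3). Slc6a11, the GABA transporter GAT-3, was seen in 76.9 ± 6.5% of cluster 9 nuclei and 1.98 ± 1.8% of cluster 11 nuclei at that depth. Without thinning, these shares were 99.4% against 19.0% for Apod and 90.3% against 4.31% for Slc6a11.

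**Figure D2:**
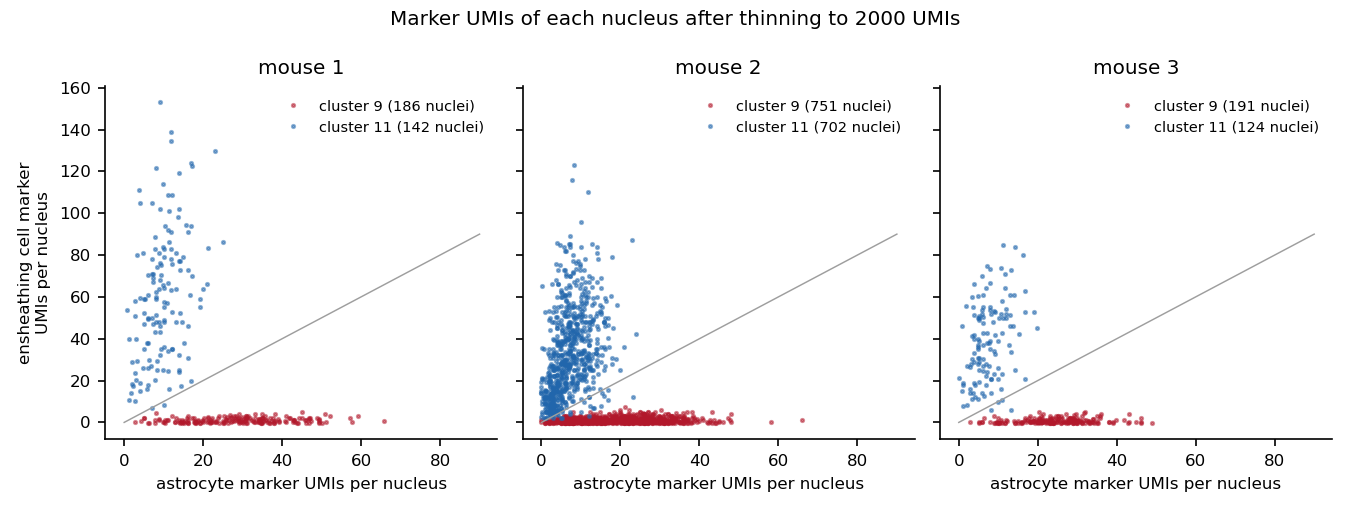
Each point is 1 nucleus after thinning to 2000 UMIs, placed by its UMIs of the astrocyte markers (horizontal) and of the ensheathing cell markers (vertical), 1 panel per mouse, with small random offsets against overplotting; the grey line marks equal counts. Cluster 9 (red) lies along the horizontal axis with a median of 0 to 1 ensheathing cell UMIs, and cluster 11 (blue) lies above the line with medians of 30 to 59.

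Markers of other cell types moved with cluster 11 in part. Claudin 5 (Cldn5), a tight junction protein best known from endothelium, stood at 952, 433 and 486 CPM in cluster 11 of mice 1, 2 and 3 against 0, 1.12 and 0 in cluster 9. Of the 9 endothelial markers Cldn5 and Itm2a were higher in cluster 11, while Flt1, Slco1a4, Ly6c1 and Egfl7 averaged at most 2.34 CPM there. Tek was not called (0.755 ± 0.46) but was called higher in cluster 9 without mouse 3 (1.30, adjusted p = 0.01325). Pecam1 (7.5 CPM in cluster 9 against 3.1 in cluster 11) and Mecom (3.15 against 0.77) were not tested. Summed endothelial markers ran from 477 to 1001 in cluster 11, most of it from Cldn5, against 23.4 to 39.8 in cluster 9. Of the 8 mural markers Vtn (vitronectin) was at 1785, 773 and 803 in cluster 11, Rgs5, Kcnj8, Abcc9, Acta2 and Higd1b averaged at most 3.75, and Pdgfrb and Notch3 were higher in cluster 9. Oligodendrocyte markers summed to 531 to 805 in cluster 11, most of it from Aspa, and to 101 to 165 in cluster 9. Of 6 tested oligodendrocyte markers, 3 were higher in cluster 11 and none in cluster 9. These were Aspa, which encodes an acetylaspartate-cleaving enzyme, at 535 against 32.8 CPM, Prr5l at 23.6 against 2.70 and Mbp at 49.9 against 21.7. Cnp stood at 50.5 against 26.1 with no overlap and fell short of the threshold of 1 (-0.88 ± 0.22), though it passed without mouse 2 (-1.01, adjusted p = 0.0404). Of the others, Mog, Mag, Mobp and Opalin averaged 1.02 to 11.3 in cluster 11 against 297 to 2475 in cluster 16, where they were highest. The Schwann cell list was higher in cluster 11 for all 3 of its 5 genes that could be tested, Pmp22 and Mal among them. Among microglial markers Tmem119 alone of 4 tested was higher in cluster 11, at 20.9, 8.87 and 29.2, and C1qa and Csf1r averaged at most 3.96 CPM in both clusters. Tmem119 had too few UMIs to be tested with at least 1500 genes per nucleus or after thinning to equal library totals. Ranbp3l, of the fibroblast list, was higher in cluster 9 while Dcn, Col1a2 and Lum averaged at most 5.48 in both. The part of other cell types in these results was not tested beyond these levels.

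Neuronal markers varied with the mouse. None of 6 neuron markers, 6 inhibitory neuron markers and 5 tested mitral or tufted cell markers was called. Of 3 tested markers of immature neurons, Sox11 alone was called, higher in cluster 9 with overlapping values (1.14 ± 0.29). It was not called with no replicate block (0.97, adjusted p = 0.192), with DESeq2 (1.18, adjusted p = 0.213) or without mouse 2 (1.26, adjusted p = 0.198). Summed neuron markers stood at 2607, 3759 and 1386 CPM in cluster 9 and at 1914, 3641 and 1664 in cluster 11, against a median of 6914 over the other clusters. Nuclei with more than 2 times the median UMIs of their cluster and mouse held these markers at 4428 to 7053 CPM, and the other nuclei of the same libraries at 499 to 1847. Such nuclei numbered 18, 140 and 17 in cluster 9 and 12, 137 and 11 in cluster 11. Mouse 2 had the highest neuronal sums in both clusters, and it had the lowest level in 15 of the 17 genes named by size for cluster 9 and 16 of 18 for cluster 11. Without the deep nuclei 1144 genes were higher in cluster 9 and 1122 in cluster 11, in place of 922 and 1006, and Meis2, of the inhibitory neuron list, was then called higher in cluster 9 (0.57 with all nuclei, 1.22 without the deep ones, adjusted p = 0.000708). None of the 43 genes named by size or as shared changed its call. These had been picked for large folds, high levels or intervals within -1 and 1. The part of the neuronal UMIs in the other results was not tested.

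**Figure D3:**
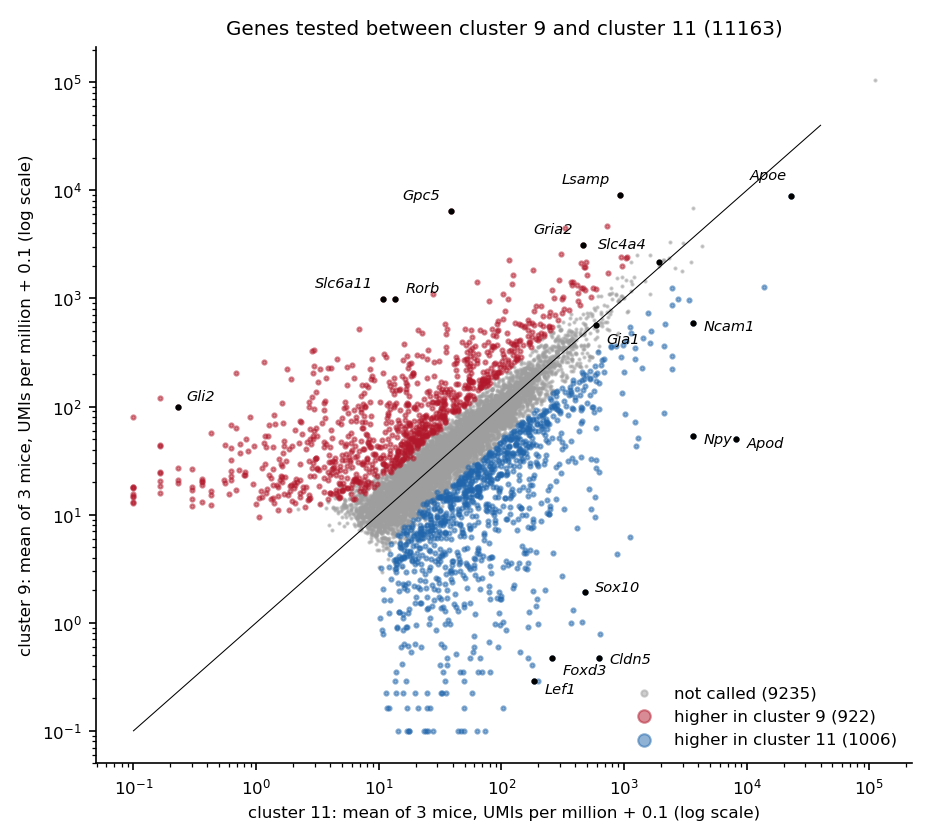
Mean level of each of the 11163 genes tested in cluster 11 (horizontal) and cluster 9 (vertical), CPM with 0.1 added, both axes on a log scale, with the line of equal levels; 922 genes higher in cluster 9 are red, 1006 higher in cluster 11 blue and 9235 not called grey. Labelled genes are described in the text: Gpc5, Slc6a11, Rorb and Gli2 lie far above the line, Apod, Npy, Sox10, Cldn5, Foxd3 and Lef1 far below, and Slc4a4 and Gja1 on it.

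The genes with the largest fold in favour of the astrocyte-like cluster were chosen among called genes with at least 50 CPM and no overlap between libraries, the first 12 by fold. Their order opened with Nkx2-2os, an antisense transcript at the Nkx2-2 locus, which had 92, 278 and 122 UMIs in cluster 9 and 0 in all libraries of cluster 11. Against the limit of 3 counts over the group, this is at least 139-fold higher. Nkx2-2os overlaps Nkx2-2 on the other strand, and whether the counting used strand was not stated in the sources used here. Next came Atp13a4, a P-type ATPase gene at chr16:29395853-29544864 (GRCm38, minus strand), with 736 UMIs against 1, a ratio of 625 with a counting interval of 112 to 24710. Gli2 stood at 108, 72.8 and 115 CPM in cluster 9 and 0, 0.394 and 0 in cluster 11. Gli2, a transcription factor of hedgehog signalling, had 646 UMIs against 2, a ratio of 274 (counting interval 75.6 to 2269).

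Values of Slc6a11 were 1236, 711 and 1037 in cluster 9 and 13.5, 16.0 and 2.66 in cluster 11, a log2 fold change of 6.2 ± 0.36, adjusted p = 5e-07. Slc39a12 stood at 334, 230.4 and 434 CPM in cluster 9 (mice 1, 2 and 3) and at 4.49, 2.76 and 1.33 in cluster 11 (log2 fold change 6.61 ± 0.28, adjusted p = 1.21e-07). Slc39a12 encodes a zinc transporter of the ZIP family. For Gldc, cluster 9 gave 254, 150.2 and 264 CPM and cluster 11 0, 2.37 and 2.66 (log2 fold change 6.39 ± 0.32, adjusted p = 2.14e-07). Gldc encodes glycine decarboxylase, the first enzyme of glycine cleavage. The level of Dio2 was 115, 69.6 and 136 in cluster 9 against 1.5, 0.394 and 2.66 in cluster 11 (log2 fold change 6.62 ± 0.36, adjusted p = 2.95e-07). Dio2 encodes the deiodinase that makes active thyroid hormone, and in both of these genes all cluster 11 libraries held at most 12 UMIs. Folh1, which encodes glutamate carboxypeptidase II, stood at 219, 151 and 236 against 0, 1.77 and 0, and Hs3st3a1, a heparan sulfate sulfotransferase gene, at 253, 236 and 293 against 0, 3.15 and 0. The list closed with Frem1 (extracellular matrix; log2 fold change 6.25 ± 0.43) and S1pr1, a sphingosine 1-phosphate receptor (6.07 ± 0.36). All 12 but Nkx2-2os, which was higher in cluster 16, were highest in cluster 9 of all 22 clusters.

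By level, the genes named for cluster 9 included Gpc5, Lsamp, Ntm, Gria2 and Ctnnd2. Gpc5 reached 6595, 4980 and 7787 CPM in cluster 9 and 40.4, 48.3 and 26.6 in cluster 11 (log2 fold change 7.30 ± 0.32, adjusted p = 1.42e-07). Gpc5, a glypican gene at chr14:115092215-116525179, was the only one to lead by fold as well. Cluster 9 held 9483, 7030 and 10890 CPM of Lsamp and cluster 11 793, 1087 and 910.3 (log2 fold change 3.29 ± 0.24, adjusted p = 2.27e-06). Lsamp and Ntm encode GPI-anchored cell adhesion molecules of the IgLON family. With 4460, 3575 and 5494 CPM in cluster 9 and 279.8, 421 and 291 in cluster 11, Ntm had a log2 fold change of 3.76 ± 0.25, adjusted p = 1.29e-06. Ctnnd2, a delta-catenin gene, reached log2 3.07 ± 0.26, and Gria2, an AMPA receptor subunit gene, 2.82 ± 0.26. Ntm and Gria2 ranked 21st and Ctnnd2 22nd of 22 clusters in cluster 11, so the ensheathing cell-like cluster was at or next to the bottom for these 3 genes.

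The largest folds in favour of the ensheathing cell-like cluster, by the same rule, were led by Gm29927, an unnamed transcript with 56, 333 and 52 UMIs against 0 in all libraries of cluster 9, at least 173-fold higher. Fcgr2b, an inhibitory Fc receptor gene known from immune cells, had 51, 183 and 59 UMIs against 0, at least 115-fold higher, and was higher still in cluster 20 (174 CPM), where the microglial markers were highest. Both had no UMI in cluster 9. Values of Cldn5 were 0, 1.12 and 0 in cluster 9 and 952, 433 and 486 in cluster 11, a log2 fold change of -9.29 ± 0.39, adjusted p = 1.11e-07. Cldn5 lies at chr16:18776847-18778262 and was highest in cluster 11 of all 22 clusters, above cluster 18 at 314, where summed endothelial markers were highest.

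Several of the others are transcription factor genes. Sox10 stood at 2.10, 1.12 and 2.27 CPM in cluster 9 (mice 1, 2 and 3) and at 519, 341 and 569 in cluster 11 (log2 fold change -8.05 ± 0.25, adjusted p = 3.98e-08). Sox10, at chr15:79154908-79165240, is the factor shared by Schwann cells, ensheathing cells and oligodendrocytes. It averaged 476 CPM in cluster 11 and 550 in cluster 19, where summed markers of oligodendrocyte precursors were highest. Lef1 stood at 0, 0.558 and 0 CPM in cluster 9 and 129, 130.5 and 294 in cluster 11. Lef1, which acts on Wnt target genes, had 969 UMIs against 3, a ratio of 381 (counting interval 130 to 1848). Foxd3 closed the list with a log2 fold change of -8.03 ± 0.38.

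Apart from the noncoding Gm29683, the rest of the 12 encode membrane, secreted and contractile proteins. For Mybpc1, cluster 9 gave 1.05, 0.931 and 0.755 CPM and cluster 11 386, 377 and 607 (log2 fold change -8.75 ± 0.28, adjusted p = 3.98e-08). Mybpc1 encodes a myosin-binding protein of slow muscle, and outside cluster 11 its highest level was 5.65. Erbb3 stood at 0, 0.372 and 0.755 CPM in cluster 9 and 168, 124 and 203 in cluster 11. Erbb3, at chr10:128567523-128589652, encodes a neuregulin receptor of Schwann cell precursors and had 893 UMIs against 3, a ratio of 351 (counting interval 120 to 1703). Prss56, a serine protease gene, had 968 UMIs against 3, a ratio of 380 (counting interval 130 to 1846). Prima1, which anchors acetylcholinesterase in membranes, stood at 394, 303 and 407 against 2.10, 0.558 and 0. Gm29683 itself stood at 516, 558 and 820 against 0, 2.05 and 0.

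By level, the genes named for cluster 11 were Ptn, Apod, Npy, Ncam1, Fabp7 and Pde4b. The level of Ptn was 1454, 1034 and 1347 in cluster 9 against 18440, 10680 and 12310 in cluster 11 (log2 fold change -3.40 ± 0.22, adjusted p = 8.92e-07). Ptn encodes pleiotrophin, a heparin-binding growth factor. Apod reached 62.0, 59.4 and 27.2 CPM in cluster 9 and 12010, 5319 and 7305 in cluster 11 (log2 fold change -7.30 ± 0.35, adjusted p = 1.86e-07). Within cluster 11, Apod and Npy were lowest in mouse 2. Cluster 9 held 647, 561 and 576 CPM of Ncam1 and cluster 11 3853, 3155 and 3910 (log2 fold change -2.60 ± 0.18, adjusted p = 1.76e-06). Ncam1, neural cell adhesion molecule 1, was present in most nuclei of both clusters. Fabp7, a fatty acid-binding protein gene often used as a marker of radial glia, reached a log2 fold change of -3.39 ± 0.22, and Pde4b, a cAMP phosphodiesterase gene, -3.05 ± 0.21. Pde4b averaged 2443 CPM in cluster 11 and 4179 in cluster 16. For Ptn and Fabp7 cluster 9 ranked 3rd and 2nd of 22 clusters and cluster 11 first, so these genes were higher in both glial clusters than in most others.

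Promoter sequence was read for the genes named by fold or level, in both directions. SOX factors, among them Sox9 and Sox10, bind cores such as ACAAAG and ACAATG, and both were searched on both strands in the 250 bases before the start site (RefSeq, GRCm38.p6). Of 28 named genes with a promoter entry that was read, 5 held such a core. The core is in capitals in the 4 of them whose entry begins within 200 bases of the annotated gene start, each 5' to 3' on the gene's strand, minus for all. Atp13a4 (chr16:29544865-29545114) and Frem1 (chr4:83052167-83052416) were higher in cluster 9, and Gm29683 (chr7:70337853-70338102) and Apod (chr16:31314809-31315058) in cluster 11:
Atp13a4: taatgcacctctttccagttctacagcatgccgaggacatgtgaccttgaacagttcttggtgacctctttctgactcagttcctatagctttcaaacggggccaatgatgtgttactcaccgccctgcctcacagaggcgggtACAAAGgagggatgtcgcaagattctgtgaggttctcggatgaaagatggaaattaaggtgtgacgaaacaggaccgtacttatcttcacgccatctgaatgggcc
Frem1: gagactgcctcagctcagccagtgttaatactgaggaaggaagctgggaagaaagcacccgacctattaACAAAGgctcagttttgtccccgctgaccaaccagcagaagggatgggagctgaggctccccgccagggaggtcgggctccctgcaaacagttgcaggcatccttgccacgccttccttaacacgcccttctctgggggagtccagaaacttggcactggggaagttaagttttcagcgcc
Gm29683: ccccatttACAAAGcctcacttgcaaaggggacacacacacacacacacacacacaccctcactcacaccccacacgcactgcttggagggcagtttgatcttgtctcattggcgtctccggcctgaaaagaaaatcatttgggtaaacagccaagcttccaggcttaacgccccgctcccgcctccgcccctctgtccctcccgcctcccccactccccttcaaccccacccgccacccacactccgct
Apod: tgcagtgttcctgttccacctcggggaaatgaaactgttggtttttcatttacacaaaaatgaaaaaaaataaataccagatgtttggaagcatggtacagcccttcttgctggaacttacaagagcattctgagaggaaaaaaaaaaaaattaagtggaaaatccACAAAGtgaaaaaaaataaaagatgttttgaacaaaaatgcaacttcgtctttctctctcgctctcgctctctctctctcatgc
Among all genes tested, 18.1% of 667 promoters of genes higher in cluster 9 held a core, 17% of 741 of genes higher in cluster 11 and 16.0% of 7126 of genes not called. Over all 32851 entries the share was 25.2%. These are matches of letters and not binding sites.

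The gene lists below were read by their counts beside the background of 8.26% and 9.01% of all genes tested. They follow the roles of both glia: transmitter uptake and receptors first, then ions and junctions, identity factors, signals, matrix and metabolism. Several lists hold members of the marker lists by which the clusters were named, so their counts are not separate support for those names.

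**Figure D4:**
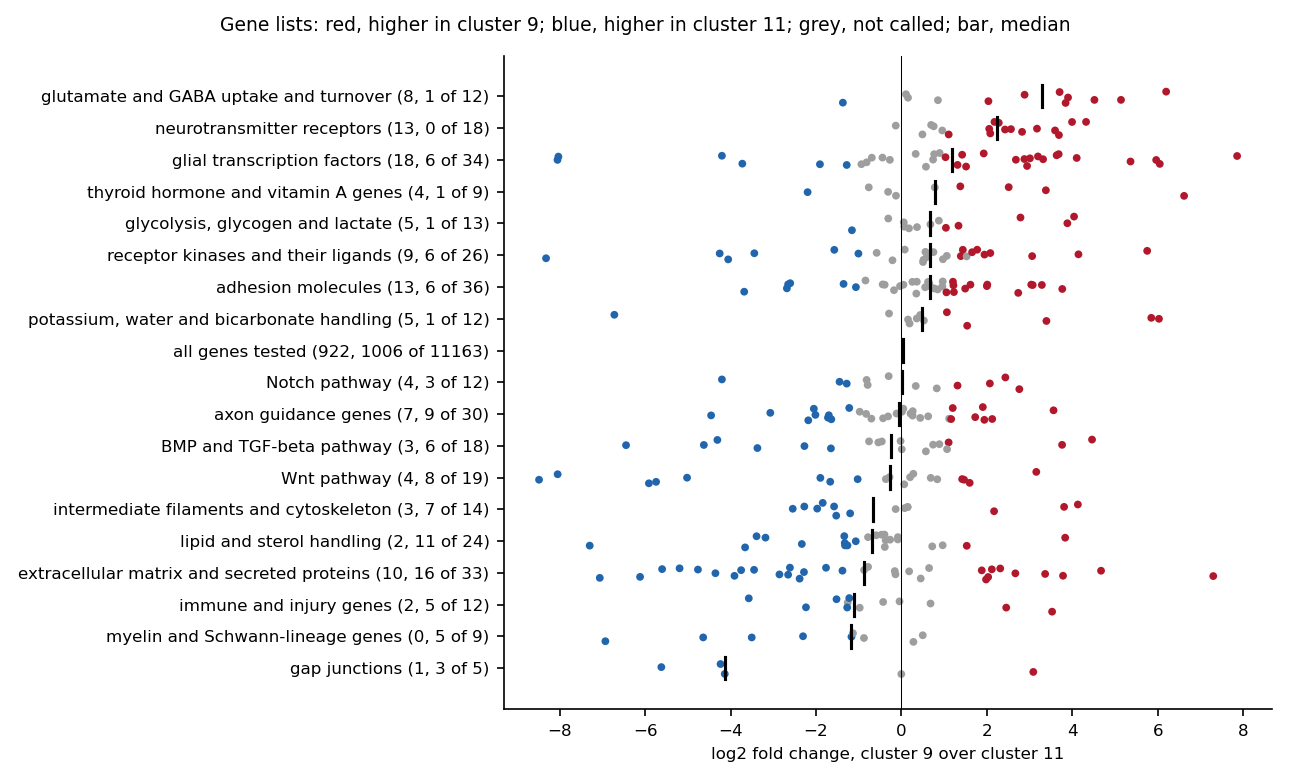
Log2 fold change of cluster 9 over cluster 11 for each tested gene of each list, with the list's median as a black bar; red is higher in cluster 9, blue higher in cluster 11 and grey not called. Numbers beside each name are genes higher in cluster 9, genes higher in cluster 11 and genes tested; for all genes only the median, 0.03, is drawn. Glutamate and GABA uptake has the highest median (3.29) and gap junctions the lowest (-4.14). The latter is the value of Gjb1, the middle of 5 tested genes, which could not be tested without mouse 2 or after thinning.

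Uptake and turnover of glutamate and GABA was weighted to the astrocyte-like cluster: 8 of 12 genes were higher in cluster 9 and 1 in cluster 11, with a median log2 fold change of 3.29. Of these 8, Slc1a2, Slc1a3, Slc6a11 and Slc7a10 were also among the astrocyte markers by which cluster 9 was named. With 236, 131 and 189 CPM in cluster 9 and 2.99, 5.13 and 2.66 in cluster 11, Slc6a9 had a log2 fold change of 5.14 ± 0.28, adjusted p = 3.1e-07. Slc6a9, the glycine transporter GlyT1, was near 0 in cluster 11. Slc38a3 (glutamine export; 3.84 ± 0.27) and Glud1 (glutamate dehydrogenase; 2.88 ± 0.18) were also higher in cluster 9. Glul, glutamine synthetase, the enzyme that turns glutamate into glutamine, was not called. Values of Glul were 808, 523 and 838 in cluster 9 and 771, 492 and 684 in cluster 11, a log2 fold change of 0.15 ± 0.16, adjusted p = 0.575. Its 95% interval lay within -1 and 1, and cluster 9 and cluster 11 ranked first and second of 22. Slc7a11 stood at 141, 92.1 and 196 CPM in cluster 9 (mice 1, 2 and 3) and at 450.4, 262 and 380.1 in cluster 11 (log2 fold change -1.37 ± 0.18, adjusted p = 0.000183). Slc7a11, the light chain of the cystine-glutamate exchanger, was the exception in favour of cluster 11.

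Neurotransmitter receptors went one way, with 13 of 18 tested genes higher in cluster 9, none higher in cluster 11 and a median of 2.23. For Gabrb1, cluster 9 gave 2274, 1907 and 2635 CPM and cluster 11 97.3, 174 and 74.4 (log2 fold change 4.32 ± 0.30, adjusted p = 1.7e-06). Gabrb1 encodes a GABA-A receptor subunit and overlaps Gabra4 on the other strand, which was also called (2.08 ± 0.28). Ntsr2 (neurotensin receptor; 3.69 ± 0.22), Grin2c (an NMDA receptor subunit; 3.17 ± 0.27), Grm3 (a glutamate receptor; 2.42 ± 0.27) and P2ry1 (a purine receptor; 3.6 ± 0.57) followed. The level of Ednrb was 428, 307 and 341 in cluster 9 against 115, 75.5 and 71.8 in cluster 11 (log2 fold change 2.05 ± 0.17, adjusted p = 4.87e-06). Ednrb, the endothelin receptor B, was thus present in both clusters at a ratio of about 4. Adra1a (1.10 ± 0.31) fell short of the threshold of 1 without mouse 3, at 0.68, and with no replicate block, at 0.94 (adjusted p = 0.164). Grm5 (0.95) and Gria4 (0.49) were not called with all nuclei and reached 2.22 and 1.20 without the deep nuclei, both then called, as Grm5 also was without mouse 2 (1.27).

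In potassium, water and bicarbonate handling 5 of 12 genes were higher in cluster 9, 1 in cluster 11, and 6 were not called. Mlc1, which encodes an endfoot membrane protein, followed Aqp4 (5.85 ± 0.28 and 6.03 ± 0.24). Aqp1 reached 2.10, 1.86 and 0 CPM in cluster 9 and 238, 148 and 189 in cluster 11 (log2 fold change -6.72 ± 0.34, adjusted p = 2.14e-07). Aqp1, the water channel of choroid plexus and red cells, was the exception and was near 0 in every other cluster (at most 3.93), so that Aqp4 and Aqp1 lay on opposite sides. The inward rectifiers Kcnj10 and Kcnj16 differed little (0.52 ± 0.17 and 0.44 ± 0.18), as did Atp1b2, a sodium pump subunit gene (0.19 ± 0.16). Hepacam, a partner of Mlc1, passed at 1.06 ± 0.16, and with the stricter gene minimum (0.98) or after thinning (0.997) it lay just under the threshold of 1.

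Gap junction genes split by connexin. Cluster 9 held 659, 374 and 665 CPM of Gja1 and cluster 11 847, 358 and 553 (log2 fold change -0.00 ± 0.18, adjusted p = 0.992). Gja1, connexin 43, was not called, and its libraries overlapped. With 194, 95.7 and 190.3 CPM in cluster 9 and 18.0, 14 and 18.6 in cluster 11, Gjb6 had a log2 fold change of 3.09 ± 0.21, adjusted p = 1.17e-06. Gjb6, connexin 30, was higher in cluster 9, and Gjb2, connexin 26, in cluster 11 (-4.24 ± 0.45). Values of Gjc3 were 3.15, 1.86 and 5.29 in cluster 9 and 132, 104 and 256 in cluster 11, a log2 fold change of -5.62 ± 0.24, adjusted p = 1.36e-07. Gjc3, connexin 29, is known from myelinating and ensheathing glia and was higher in cluster 11, as was Gjb1 (-4.14 ± 0.56). Gjb1 had too few UMIs to be tested without mouse 2 or after thinning.

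Myelin and Schwann-lineage genes were higher in cluster 11 in 5 of 9 tested and never in cluster 9. Pmp22 stood at 40.0, 17.5 and 18.9 CPM in cluster 9 (mice 1, 2 and 3) and at 166, 83.6 and 124 in cluster 11 (log2 fold change -2.31 ± 0.20, adjusted p = 7.19e-06). Pmp22, peripheral myelin protein 22, was highest in cluster 11 of all clusters. Mbp, at 49.9 in cluster 11, passed at -1.17 ± 0.22 but was 4314 in cluster 16, the cluster highest in oligodendrocyte markers.

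Glial transcription factors were divided, 18 of 34 tested being higher in cluster 9 and 6 in cluster 11. For Sox9, cluster 9 gave 177, 125 and 244 CPM and cluster 11 22.4, 11.6 and 5.32 (log2 fold change 3.68 ± 0.31, adjusted p = 5.54e-06). Sox9 is the SOX factor of astrocytes. The level of Rorb was 916, 788 and 1255 in cluster 9 against 4.49, 18.7 and 17.3 in cluster 11 (log2 fold change 5.96 ± 0.31, adjusted p = 2.27e-07). Rorb encodes an orphan nuclear receptor. Id4 (5.36 ± 0.27), Gli3 (4.10 ± 0.31), Npas3 (3.31 ± 0.21), Pax6 (3.19 ± 0.31) and Sox2 (3.01 ± 0.19) were likewise higher in cluster 9. Olig2 (3.63 ± 0.59) and Olig1 (2.68 ± 0.30), best known from oligodendrocyte precursors, were higher in cluster 9 at 18.8 and 45.5 CPM, and with Vcan (2.31 ± 0.46) they made 3 of the 4 tested markers of these precursors that were higher in cluster 9, none being higher in cluster 11. The other tested marker, Lhfpl3, was not called (-0.77 ± 0.21) but was without the deep nuclei (-1.34), and the 5 untested ones averaged at most 6.85 CPM in cluster 9, the highest being C1ql1. Besides Sox10 and Foxd3, cluster 11 held more Hey2 (-4.20 ± 0.22), Zfp536 (-3.73 ± 0.23), Foxo1 (-1.91 ± 0.19) and Hes5 (-1.28 ± 0.20). Nfia (0.33 ± 0.16), Sox8 (-0.27 ± 0.16) and Zbtb20 (-0.45 ± 0.17) were not called, and each was at a level of 138 CPM or more in both.

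The Notch list had 4 genes higher in cluster 9 and 3 in cluster 11 of 12 tested. Among receptors, Notch3 was higher in cluster 9 (2.76 ± 0.36), Notch2 in cluster 11 (-1.45 ± 0.17), and Notch1 was not called (-0.30 ± 0.18). Lfng, a fringe glycosyltransferase that modifies Notch, was higher in cluster 9 (2.43 ± 0.21). Of the targets, Hey2 and Hes5 were higher in cluster 11 (-4.20 ± 0.22 and -1.28 ± 0.20). Hey1 was higher in cluster 9 (1.31 ± 0.34) but was not called without mouse 2 (0.80, adjusted p = 0.255) or with DESeq2 (1.20, adjusted p = 0.144).

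Wnt genes were weighted to cluster 11 with 8 of 19 tested, against 4 in cluster 9. Among secreted parts, Rspo1, an R-spondin that strengthens Wnt signalling, had 88 UMIs in cluster 11 and 0 in cluster 9, at least 34.5-fold higher. Sfrp5 reached 1.05, 2.23 and 0 CPM in cluster 9 and 92.8, 48.7 and 41.2 in cluster 11 (log2 fold change -5.02 ± 0.43, adjusted p = 6.44e-06). Sfrp5 and Frzb encode secreted Wnt antagonists, and Apcdd1 a membrane-bound one (-5.91 ± 0.39). Rspo3 passed at -1.03 ± 0.25 and fell short without mouse 3 (-0.67) and after thinning (-0.95). Cluster 9 held 11.6, 8.75 and 9.06 CPM of Axin2 and cluster 11 46.4, 28.0 and 43.9 (log2 fold change -1.90 ± 0.28, adjusted p = 0.000374). Axin2 is a general target of the pathway. The TCF factors differed by member: Lef1 was higher in cluster 11, and Tcf7l1 (1.42 ± 0.20) and Tcf7l2 (1.47 ± 0.17) in cluster 9. Wnt7b (3.16 ± 0.55) was the ligand called in cluster 9. Both Wnt7b and Rspo1 had too few UMIs to be tested after thinning.

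Of 18 BMP and TGF-beta genes tested, 3 were higher in cluster 9 and 6 in cluster 11, the ligands among the latter. With 0, 0.931 and 0.755 CPM in cluster 9 and 82.3, 65.3 and 91.7 in cluster 11, Bmp5 had a log2 fold change of -6.45 ± 0.38, adjusted p = 5.27e-07. Values of Bmp7 were 4.21, 4.65 and 13.6 in cluster 9 and 193, 146 and 187 in cluster 11, a log2 fold change of -4.63 ± 0.28, adjusted p = 5.89e-07. Bmp6 was also higher in cluster 11 (-4.31 ± 0.28), so all 3 BMP ligands tested were. The type I receptors Bmpr1b (4.46 ± 0.27) and Bmpr1a (1.10 ± 0.17) and the antagonist Chrdl1 (3.76 ± 0.26) were higher in cluster 9, Bmpr1a dropping to 0.995 without mouse 3. Tgfbr2 (-2.27 ± 0.26) and Tgfbr3 (-3.37 ± 0.52) were higher in cluster 11. Bmpr2 and Tgfbr1 were not called (-0.02 ± 0.15 and 0.01 ± 0.23).

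Receptor kinases and their ligands gave 9 genes in cluster 9 and 6 in cluster 11 of 26 tested. Fgfr3 stood at 196, 116 and 196 CPM in cluster 9 (mice 1, 2 and 3) and at 4.49, 2.17 and 2.66 in cluster 11 (log2 fold change 5.75 ± 0.25, adjusted p = 1.42e-07). Fgfr3, an FGF receptor of astrocytes, and Egfr (4.14 ± 0.35) were higher in cluster 9. For Ntrk2, cluster 9 gave 1093, 836 and 1025 CPM and cluster 11 320.2, 295 and 319 (log2 fold change 1.65 ± 0.17, adjusted p = 2.16e-05). Ntrk2 encodes the BDNF receptor TrkB. Ligands higher in cluster 9 were Fgf1 (3.06 ± 0.25) and Vegfa (2.08 ± 0.19). Beside Erbb3, cluster 11 held more Gfra1, a GDNF co-receptor gene (-4.06 ± 0.26), Met, the HGF receptor gene (-4.26 ± 0.23), and Igf1 (-3.44 ± 0.24). Hgf itself passed in cluster 9 at 14 CPM (1.77 ± 0.54), but not without mouse 2 (0.68, adjusted p = 0.515), with no replicate block (adjusted p = 0.0608) or with DESeq2 (adjusted p = 0.230). Erbb4 (1.44 ± 0.41) fell to 0.71 without mouse 3 and was not called with no replicate block (1.20, adjusted p = 0.0949) or with DESeq2 (1.53, adjusted p = 0.254).

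Of 33 matrix genes tested, 16 were higher in cluster 11 and 10 in cluster 9. The level of Nid1 was 4.21, 2.61 and 1.51 in cluster 9 against 108, 65.3 and 71.8 in cluster 11 (log2 fold change -4.76 ± 0.29, adjusted p = 6.21e-07). Lama4 reached 6.31, 1.30 and 5.29 CPM in cluster 9 and 144, 130.3 and 187 in cluster 11 (log2 fold change -5.60 ± 0.33, adjusted p = 5.09e-07). Nid1 encodes nidogen 1 and Lama4 a laminin chain. Hspg2, perlecan (-6.12 ± 0.51), Lamc1 (-2.65 ± 0.17), Nid2 (-3.45 ± 0.35), Col4a1 (-2.38 ± 0.26) and Col4a2 (-1.38 ± 0.29) went the same way, as did Fbln2 (-5.20 ± 0.30), Thbs2 (-3.91 ± 0.28) and Sparc (-2.61 ± 0.20). The laminin chain genes Lama2 (2.67 ± 0.18) and Lama5 (1.98 ± 0.42) were higher in cluster 9, though Lama5 had too few UMIs to be tested after thinning. Cluster 9 held 635, 352 and 573 CPM of Bcan and cluster 11 53.9, 34.9 and 62.5 (log2 fold change 3.36 ± 0.18, adjusted p = 2.75e-07). Bcan and Ncan encode brevican and neurocan. Tnc (4.67 ± 0.40), Ncan (2.12 ± 0.21) and Tnr (1.88 ± 0.19) were called too. Sparcl1 (0.45 ± 0.18) and Sdc4 (-0.14 ± 0.17) were not.

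Of 36 adhesion genes tested 13 were higher in cluster 9 and 6 in cluster 11. Cdh2, N-cadherin, was higher in cluster 9 (2.0 ± 0.19), as were Cdh4 (3.04 ± 0.37) and Nrcam (1.61 ± 0.23). With 226, 316 and 144 CPM in cluster 9 and 1250, 1400 and 1532 in cluster 11, Ncam2 had a log2 fold change of -2.65 ± 0.25, adjusted p = 1.26e-05. Ncam2 and Ncam1 encode the NCAM pair, which olfactory sensory axons also carry, and both were higher in cluster 11. Itga7, an integrin for laminin, was higher in cluster 11 (-2.68 ± 0.23). Chl1 (-0.03 ± 0.18), Cdh19 (0.55 ± 0.19) and Cdh20 (0.35 ± 0.18) were not called, and for Chl1 clusters 9 and 11 ranked first and second of 22.

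Among 30 axon guidance genes tested 7 were higher in cluster 9 and 9 in cluster 11. Values of Sema3d were 9.46, 10.2 and 6.04 in cluster 9 and 235, 184 and 209 in cluster 11, a log2 fold change of -4.46 ± 0.23, adjusted p = 2.14e-07. Sema3d encodes a secreted semaphorin. Ntn1, netrin 1 (-3.07 ± 0.28), Slit2 (-2.02 ± 0.45), Epha7 (-2.05 ± 0.23), Efna5 (-1.22 ± 0.17) and Efnb2 (-1.70 ± 0.28) were also higher in cluster 11, Slit2 with -2.04 and an adjusted p of 0.0728 without mouse 2. The netrin receptor gene Unc5c (3.56 ± 0.41), the Slit receptor gene Robo2 (1.94 ± 0.20), the semaphorin receptor gene Nrp1 (1.73 ± 0.24) and Sema6d (2.12 ± 0.17) were higher in cluster 9. Sema3a (1.12, adjusted p = 0.0544) was not called, though 8 of 12 alternative settings called it.

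Lipid genes leaned to cluster 11, 11 of 24 tested against 2. Apoe stood at 10530, 6588 and 9244 CPM in cluster 9 (mice 1, 2 and 3) and at 34920, 16430 and 17630 in cluster 11 (log2 fold change -1.32 ± 0.23, adjusted p = 0.00128). Apoe encodes the main lipid carrier of the brain, and its call was lost without mouse 1 (-1.15, adjusted p = 0.115). For Scd1, cluster 9 gave 6.31, 8.75 and 12.1 CPM and cluster 11 198, 89.9 and 121 (log2 fold change -3.66 ± 0.28, adjusted p = 3.03e-06). Scd1 encodes a fatty acid desaturase. Scd2 (-1.33 ± 0.21), Fasn (-1.29 ± 0.20), Dbi (-1.34 ± 0.20), Ptgds (-2.33 ± 0.26) and Apoc1 (-3.18 ± 0.33) went with it, while the sterol synthesis genes Hmgcs1 (-0.47 ± 0.19) and Sqle (-0.27 ± 0.27) were not called. Clu, clusterin, and Acsbg1 were higher in cluster 9 (3.83 ± 0.23 and 1.53 ± 0.17).

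The level of Pygm was 77.8, 48.4 and 64.2 in cluster 9 against 2.99, 4.53 and 1.33 in cluster 11 (log2 fold change 3.88 ± 0.34, adjusted p = 7.54e-06). Pygm encodes a glycogen phosphorylase. Ppp1r3c (2.79 ± 0.35), Gys1 (1.33 ± 0.26), Pdk4 (4.04 ± 0.72) and Ldha (1.04 ± 0.24) were the other genes of the list higher in cluster 9, 5 of 13 tested in all. Ldha was not called with DESeq2 (adjusted p = 0.0726) or without mouse 3 (0.87) and lay at 0.997 with the stricter gene minimum, and Pdk4 had too few UMIs to be tested with the stricter gene minimum or after thinning. Slc16a1, the lactate carrier MCT1, was higher in cluster 11 (-1.16 ± 0.20), and Ldhb (0.18 ± 0.16) and Hk1 (0.07 ± 0.21) were not called.

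Cytoskeletal genes gave 7 of 14 higher in cluster 11 and 3 in cluster 9. Gfap reached 158, 117 and 184 CPM in cluster 9 and 5.99, 7.49 and 10.6 in cluster 11 (log2 fold change 4.13 ± 0.22, adjusted p = 2.95e-07). Gfap, the intermediate filament of astrocytes, was low in cluster 11. Cluster 9 held 63.1, 29.2 and 45.3 CPM of Vim and cluster 11 233, 100.5 and 170.1 (log2 fold change -1.84 ± 0.16, adjusted p = 8.75e-06). Vim, vimentin, and the calcium-binding S100a6 (-2.55 ± 0.30) and S100b (-1.58 ± 0.22) were higher in cluster 11. Of the thyroid hormone and vitamin A list, Dio2, the carrier gene Slco1c1 (3.38 ± 0.45), the receptor gene Thrb (2.51 ± 0.18) and Rarb (1.38 ± 0.26) were higher in cluster 9, and Rxrg in cluster 11 (-2.20 ± 0.36). Rarb had 1.25 and an adjusted p of 0.0501 without mouse 2.

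Immune and injury genes were higher in cluster 11 in 5 of 12 tested and in cluster 9 in 2. With 29.4, 1.86 and 3.78 CPM in cluster 9 and 260.4, 31.1 and 59.8 in cluster 11, Serpina3n had a log2 fold change of -3.58 ± 0.26, adjusted p = 2.2e-06. Serpina3n, a serine protease inhibitor raised in reactive glia, was highest in mouse 1 in both clusters. Values of B2m were 31.5, 31.8 and 28.7 in cluster 9 and 341, 80.8 and 150.2 in cluster 11, a log2 fold change of -2.24 ± 0.32, adjusted p = 0.000319. B2m and H2-D1 encode the parts of MHC class I, and H2-D1 (-1.27 ± 0.30) fell short without mouse 1 (-0.92). Lcn2, another reactive gene, had 31.5 CPM in cluster 9 of mouse 1 and 0 in each of the other 5 libraries and was not tested. Cxcl14, a chemokine gene, and Il33, which encodes an alarmin, were higher in cluster 9 (3.53 ± 0.27 and 2.45 ± 0.45).

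What both glial clusters shared was read from genes whose 95% interval lay within -1 and 1. That held for 6098 genes, 54.6% of those tested, and 143 of them were also at least 4 times the median of the other 20 clusters in both. Among the 8 most abundant of these were Slc4a4, Ptprz1, Dmd, Sparcl1, Cd81, Nfia and Gpm6b. Not all were highest in these clusters: Cd81 and Gpm6b averaged more in cluster 16 (1496 and 1328 CPM), and Dmd in cluster 10 (1215). For Ptprz1 and Nfia cluster 9 ranked 1st and cluster 11 3rd of 22. Slc4a4 stood at 2511, 1662 and 2358 CPM in cluster 9 (mice 1, 2 and 3) and at 2119, 1717 and 1983 in cluster 11 (log2 fold change 0.15 ± 0.17, adjusted p = 0.604). Slc4a4 encodes the sodium-bicarbonate cotransporter NBCe1. For Ptprz1, cluster 9 gave 1667, 1244 and 1839 CPM and cluster 11 1287, 985 and 1314 (log2 fold change 0.40 ± 0.17, adjusted p = 0.112). Ptprz1 encodes a receptor phosphatase that binds pleiotrophin, whose gene was higher in cluster 11. The level of Dmd was 1222, 899 and 1380 in cluster 9 against 1095, 1031 and 1285 in cluster 11 (log2 fold change 0.02 ± 0.17, adjusted p = 0.946). Dmd encodes dystrophin. In each of the 8 the libraries of both clusters overlapped, with log2 fold changes from 0.02 (Dmd) to 0.50 (Gpm6b), and in Slc4a4 and Sparcl1 the clusters ranked first and second of 22. Paired by mouse, Ptprz1, Sparcl1, Nfia and Gpm6b were higher in cluster 9 in each mouse. Their 95% intervals were 0.04 to 0.77, 0.05 to 0.85, -0.03 to 0.695 and 0.13 to 0.87. Slc4a4, Dmd and Cd81 varied in direction between mice.

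**Figure D5:**
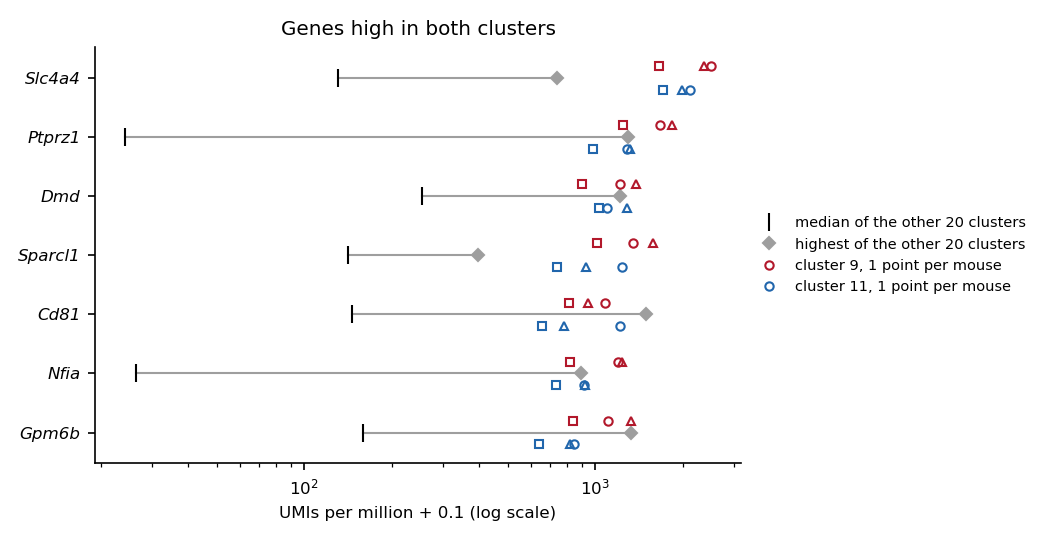
The 7 shared genes named in the text, in CPM with 0.1 added on a log axis: red is cluster 9 and blue cluster 11 with 1 point per mouse (circle, square and triangle for mice 1, 2 and 3), the bar is the median and the diamond the highest of the other 20 clusters. For Slc4a4 and Sparcl1 every library of both clusters lies to the right of the diamond.

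Nuclei with UMIs of dividing-cell genes were counted at the depth as sequenced, and a count of 0 is given with the limit of 3 counts of the total. At least 2 of 6 such genes were seen in 0 of 188, 0 of 757 and 0 of 191 nuclei of cluster 9, which allows shares of nuclei with such UMIs of up to 1.60%, 0.396% and 1.57%. In cluster 11 the counts were 0 of 142 (up to 2.11%), 9 of 706 (1.27%) and 2 of 124 (1.61%). Top2a, a topoisomerase of dividing cells, stood at 0, 15.8 and 37.2 CPM in cluster 11 and was too low to be tested. Hmgb2 alone of the 6 could be tested and was higher in cluster 11 (-1.48 ± 0.39), which did not hold without the deep nuclei (-0.92, adjusted p = 0.155) or with DESeq2 (-1.59, adjusted p = 0.0699). The difference in shares between the clusters was not tested.

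The reporter was present in both clusters at overlapping levels, a measure chosen after its values were seen. The eGFP row held 22.1, 58.4 and 40.0 CPM in cluster 9 and 25.4, 58.8 and 12 in cluster 11, from 9 to 314 UMIs a library. Clusters 9 and 11 ranked 9th and 14th of 22. The 3 highest, clusters 21, 3 and 0, averaged 165, 146 and 106. Cluster 21 varied most, with 0, 250.8 and 243.5 CPM of eGFP in mice 1, 2 and 3. Whether this RNA was made in the glia was not tested.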

How the data were processed

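Nuclei of 3 mice were measured, 1 library each. The deposited UMI counts per gene and barcode had been made by the authors with Cell Ranger 3.0.2 on mm10 (GRCm38); whether intronic or antisense reads were counted is not given in the sources used here, so overlapping genes cannot be told apart. The authors kept nuclei with at least 1000 genes and at most 5 percent mitochondrial UMIs (a deposited percent value), merged mice with CCA in Seurat and clustered on 30 principal components at resolution 0.3. The deposited table gives cluster numbers and no names. No doublet caller was run here, and the study's methods name only a scatter gate.

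Counts were summed per cluster and mouse and printed as CPM, UMIs per 1000000 UMIs of that sum. The test was edgeR 4.0.16 (R 4.3.3, limma 3.58.1) with filterByExpr, TMM factors, mouse as a block and the quasi-likelihood test, with Benjamini-Hochberg adjustment over 11163 genes. The block comes from the animals: both clusters of a mouse were 1 animal, and deviations of same-mouse libraries correlated at 0.08, 0.32 and 0.22 over genes. The study's methods name glmGamPoi on the single-nuclei data. On simulated data for this comparison (11163 genes), genes were counted at an adjusted p under 0.05, without the threshold of 1 on the log2 fold change. By that looser rule 67.2%, 98.5% and 100% of genes changed by 1, 2 and 4 on the log2 scale were recovered in the right direction. There were 21 false calls. The changed genes were drawn from genes above a floor on mean CPM, and no difference between mice was simulated.

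Genes were named as the 12 largest folds per direction among called genes without overlap and at 50 CPM or more, the 6 highest levels per direction among called genes with a log2 fold change of at least 2 in size, the 8 highest shared genes, and the members of fixed lists. Members, lists and rules were chosen with earlier results of these data known. Positions are from GENCODE on GRCm38, with 30934 of 31055 genes matched. Alternatives were no block, DESeq2 1.42.0, other scaling, no filter, glmTreat, other nuclei, thinning, and leaving out each mouse. A few genes that belong to these rules or lists count in the totals and are not reported here by name.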

Additional observations from a re-analysis of the deposited data

How the results depend on the processing

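The genes higher in cluster 9 numbered 922 and the genes higher in cluster 11 numbered 1006. With glmTreat, which tests against a log2 fold change of 1 and is stricter by construction, 561 and 649 were called. With no replicate block the counts were 911 and 990, of which 888 and 967 were the same genes as with the pairing by mouse. DESeq2 gave 903 and 1018, of which 820 and 916 were the same genes as in the main test. Other scalings gave 912 to 922 and 1021 to 1036, and no filter on low counts 1112 and 1197. The counts rest on unlike numbers of genes tested, from 9975 after thinning to 22260 with DESeq2 or no filter. Thinning to equal library totals gave 834 and 915, nuclei with at least 1500 genes 860 and 966, and leaving out nuclei over 2 times the median UMIs 1144 and 1122. Leaving out 1 mouse gave 934 to 986 and 1053 to 1168, of which 796 to 836 and 904 to 950 were the same genes. None of the 43 genes named by size or as shared changed its call under these alternatives. They had been picked for large folds, high levels or intervals within -1 and 1, so this says little of other genes. Of the list genes, 45 lost their call with glmTreat. Without nuclei over 2 times the median UMIs, 18 list genes gained a call and 1 lost it. Among list genes, the log2 fold change of Kitl reversed without nuclei over 2 times the median UMIs, from -0.21 to 1.16 (adjusted p = 0.0192); the cause was not tested. The share of nuclei in cluster 9 was 3.61% and fell to 3.14% with at least 1500 genes per nucleus. That filter left 117, 673 and 173 nuclei of cluster 9 in mice 1, 2 and 3, and 92, 663 and 104 of cluster 11. Leaving out 1 mouse gave 3.4 to 3.80% for cluster 9 and 2.52 to 2.98% for cluster 11. The smallest library, 668266 UMIs, limits what can be tested for genes of few UMIs.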
